A study of Mus musculus with 37 samples.

Results

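The 10 genes described here were listed as genes of the endocardial cushion mesenchyme and read in the E10.5 mouse heart: the transcription factor genes Twist1, Snai1, Snai2, Msx1, Msx2 and Prrx1, the matrix genes Postn, Has2 and Vcan, and the co-receptor gene Tgfbr3. They were chosen by symbol from a table of raw read counts, in which they are 10 of 25239 genes, and all 10 had enough counts to be tested. Whole hearts of 37 embryos of 4 genotypes were dissected at this stage and sequenced as bulk paired-end RNA libraries. Males carrying Stra8-iCre and 1 Nipbl Flox allele were crossed with females in which Cre was inserted into 1 Isl1 allele. Stra8-iCre acts in the male germ line, so sperm with this allele carried it either as Flox, which counts as wild-type, or as FIN, a null allele. Sperm without it carried the other Nipbl allele of these males.

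The groups were 10 hearts with both genes intact (Nipbl +/+; Isl1 +/+, called wild-type here), 9 with 1 Isl1 allele lost (Isl1 +/-), 9 with 1 Nipbl allele lost (Nipbl +/-) and 9 with both losses (Nipbl +/-; Isl1 +/-, called double heterozygous). Wild-type and Isl1 +/- hearts may have carried the paternal Flox allele, which the titles do not show. Whether the Cre at Isl1 acted on such an allele in Isl1 +/- hearts is not shown by the labels. The hearts that lost an Isl1 allele also carried Cre in its place. Loss of the allele and presence of this Cre thus cannot be told apart. Whether embryos inherited Stra8-iCre is not stated in the sources used here. The labels do not say whether hearts of a genotype came from different litters, so p-values measure the spread between these hearts. Each library also has a number after the letters IVF in its label, called its set here. The labels do not say what this number marks.

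Endocardial cushions are swellings between the inner lining of the heart and its muscle, from which the valves and part of the septa form. At about this stage, signals of the BMP, TGF-beta and Notch families lead some endocardial cells to lose their contacts, change to mesenchyme and migrate into a matrix rich in hyaluronan and versican. Nipbl loads cohesin, the ring complex that holds chromatin loops and sister chromatids, and Isl1 is a transcription factor of the second heart field, a progenitor population that adds muscle and endocardium to the heart. In bulk tissue, fewer cells of a type and less RNA per cell cannot be told apart.

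Libraries held between 23.4 and 51.0 mega-counts (median 36.2), and 15046 genes were tested. Levels are given as CPM, counts per mega-count of the library, after TMM scaling, which corrects for library composition. Nipbl was below every wild-type library in 8 of 9 Nipbl +/- and 8 of 9 double heterozygous hearts. Isl1 averaged 7.37 ± 2.24 CPM in wild-type (SD, n = 10) and 6.28 ± 1.76 in Isl1 +/- hearts (n = 9). It averaged 13.0 ± 2.82 in Nipbl +/- and 9.50 ± 3.51 CPM in double heterozygous hearts (n = 9 each). The Isl1 genotypes rest on the labels. The library labelled Nipbl +/- replicate 2 went against its label, with 72.4 CPM of Nipbl where the lowest wild-type library had 47.6 CPM, and it stood apart from all others on the first principal component. Several values are given with and without it. The sets did not hold the genotypes evenly: set 1 held 3 wild-type and 3 Isl1 +/- hearts only, and set 7 held a single double heterozygous heart, which its own set term fits exactly, so that double heterozygous comparisons rest on 8 hearts. That heart, replicate 2, was the double heterozygous heart above the lowest wild-type library for Nipbl (51.5 CPM), and it has the highest Tgfbr3, Has2 and Vcan of its genotype in the means and ranges given.

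RefSeq promoters (GRCm38.p6) were at hand for 7 of the 10 genes. Those of Twist1 (chr12:33957421-33957670, plus strand), Snai1 (chr2:167537945-167538194, plus strand) and Msx1 (chr5:37824586-37824835, minus strand) are shown because these 3 genes varied together between hearts, as described further on. Each is the 250 bases before the transcription start, 5′ to 3′. Capitals mark matches on either strand to the E-box bound by Snail proteins (CAGGTG, or CACCTG on the other strand) and to the CCAAT box (CCAAT or ATTGG). The CCAAT box was chosen after the sequences were seen.
Twist1: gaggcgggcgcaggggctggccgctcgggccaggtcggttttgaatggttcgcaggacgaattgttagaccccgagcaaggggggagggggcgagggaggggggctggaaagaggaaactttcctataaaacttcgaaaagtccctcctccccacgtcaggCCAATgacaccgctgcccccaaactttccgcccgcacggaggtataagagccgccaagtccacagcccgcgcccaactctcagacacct
Snai1: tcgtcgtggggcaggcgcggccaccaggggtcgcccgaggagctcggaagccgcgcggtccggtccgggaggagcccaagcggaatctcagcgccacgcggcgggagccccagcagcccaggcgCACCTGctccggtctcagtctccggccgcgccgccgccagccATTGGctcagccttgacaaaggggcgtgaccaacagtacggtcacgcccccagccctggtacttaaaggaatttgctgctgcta
Msx1: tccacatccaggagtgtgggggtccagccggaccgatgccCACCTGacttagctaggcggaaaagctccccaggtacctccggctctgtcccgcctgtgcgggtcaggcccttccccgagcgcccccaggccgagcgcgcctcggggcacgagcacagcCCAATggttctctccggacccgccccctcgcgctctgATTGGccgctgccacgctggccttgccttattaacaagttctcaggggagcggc
The E-box stood once in the Snai1 promoter and once in that of Msx1, and 17.2% of 32851 promoters of this length held it. The CCAAT box stood once in Twist1, once in Snai1 and at 2 places in Msx1, against a share of 33.8% of all promoters. None of these matches overlapped another. The BMP response element core GGCGCC, also searched, had no match in these 3 windows and stood in 9.6% of all promoters. Over the 7 genes with a promoter, the E-box stood in 2 (Snai1 and Msx1), the CCAAT box in 5 (Twist1, Snai1, Msx1, Msx2 and Vcan) and GGCGCC in 0.

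Between genes, levels were compared per kilobase of annotated exon, over all 37 libraries. Vcan, the large hyaluronan-binding proteoglycan versican, was highest at 42.0 ± 10.8 CPM per kilobase (SD, n = 37), and Twist1, a helix-loop-helix factor of migrating mesenchyme, came next at 29.9 ± 4.62. The ranges of these 2 genes overlapped, while the lowest Twist1 library (20.2 CPM per kilobase) lay above the highest Postn library (13.0). A middle group followed, in which each gene was within 1 SD of the next: Postn at 8.56 ± 2.43, Has2 at 7.12 ± 1.84, Tgfbr3 at 6.88 ± 1.45, Snai1 at 6.44 ± 1.48, Msx1 at 5.74 ± 1.33 and Msx2 at 4.80 ± 1.18 CPM per kilobase. Snai2 was at 3.63 ± 0.604 CPM per kilobase, overlapping the middle group. Prrx1 was lowest at 0.580 ± 0.140, and its highest library, at 0.947, was below every library of the other 9 genes. Its merged exon length of 11.066 kilobases counts exons of every annotated transcript, which lowers a level per kilobase where long exons are unused.

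Tgfbr3 was lower in hearts that had lost a Nipbl allele, and the other 9 genes did not pass the test in any comparison of genotypes. Each test came from 1 edgeR quasi-likelihood fit with genotype and set as factors, adjusted by Benjamini-Hochberg over 15046 genes and a gene was called at an adjusted p under 0.05. Of the 10 genes 1, Tgfbr3, was called in Nipbl +/- against wild-type hearts, where 1.71% of all genes were called, and 1 in double heterozygous against wild-type hearts (2.6% of all genes). Averaged over both Isl1 genotypes, loss of a Nipbl allele called 1 of the 10 (4.02% of all genes). These comparisons share the wild-type libraries.

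No member was called in Isl1 +/- against wild-type hearts (0% of all genes), although 2 of the 10 and 886 of all genes had an unadjusted p below 0.05, and DESeq2 called 0 members and 42 genes. None was called in double heterozygous against Isl1 +/- hearts (0.957% of all genes; 2 members and 1127 of all genes with an unadjusted p below 0.05), where DESeq2 called 1, Tgfbr3, and 256 of all genes. None was called in double heterozygous against Nipbl +/- hearts (0%; 0 of the 10 and 1355 of all genes unadjusted, and 0 and 32 by DESeq2), or in the interaction of both losses (0%; 1 and 411 unadjusted, and 0 and 12 by DESeq2). Loss of an Isl1 allele averaged over both Nipbl genotypes also called 0 members with edgeR (0.173% of all genes; 2 members and 1831 of all genes unadjusted, and 0 and 108 by DESeq2). The median log2 fold change of the 10 genes was 0.05 in Isl1 +/-, −0.06 in Nipbl +/- and −0.02 in double heterozygous against wild-type hearts, beside medians of all genes of −0.003, 0.008 and −0.002. It was −0.09 in double heterozygous against Isl1 +/- hearts, with 1 of 10 values above 0, and −0.13 for the averaged loss of a Nipbl allele, with 2 of 10 above 0, beside medians of all genes of 0.003 and 0.005.

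**Figure D1:**
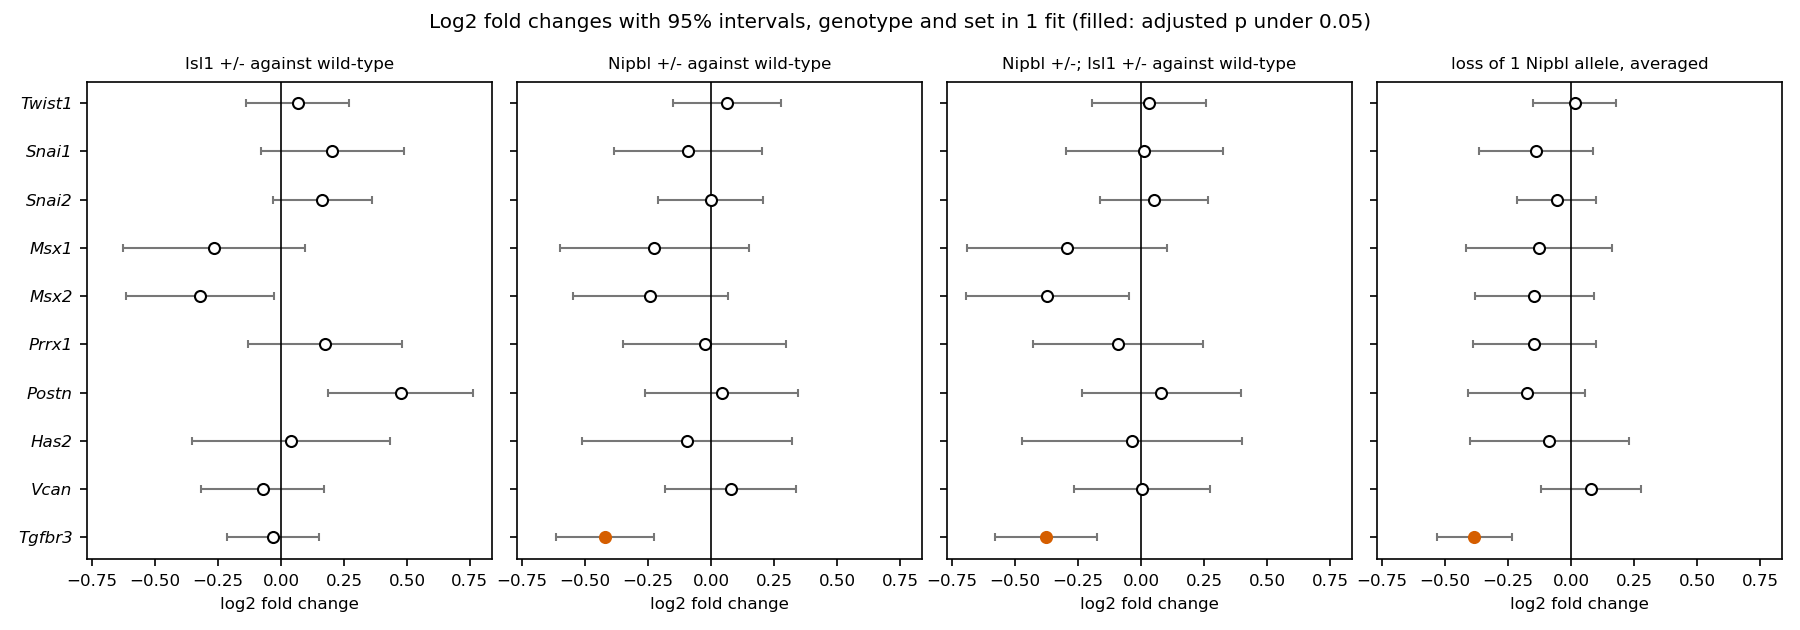
Log2 fold change of each gene (points) with its 95% interval (bars) in 4 comparisons, from 1 edgeR fit with genotype and set as factors. Filled points passed an adjusted p of 0.05, which only Tgfbr3 did in these 4 comparisons; its log2 fold changes were −0.42, −0.38 and −0.38 where a Nipbl allele was lost.

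Tgfbr3 encodes betaglycan, a co-receptor that binds TGF-beta ligands, TGF-beta2 above all, and presents them to the signalling receptors. In wild-type hearts it ranged from 34.1 to 65.8 CPM (median 45.6; mean 48.0 ± 10.3 SD, n = 10), and in Isl1 +/- hearts from 35.8 to 61.9 (median 44.1; 47.6 ± 9.02, n = 9). Nipbl +/- hearts ranged from 27.1 to 50.9 CPM (median 45.8; 41.1 ± 9.11, n = 9) and double heterozygous hearts from 29.7 to 54.3 (median 46.9; 43.1 ± 9.12, n = 9). All 4 genotypes overlapped, with 3 of 9 Nipbl +/- and 2 of 9 double heterozygous hearts below every wild-type heart.

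Within sets the genotypes stood further apart. In set 2, the 2 Nipbl +/- hearts (27.1 and 29.0 CPM of Tgfbr3) and the 2 double heterozygous hearts (29.7 and 30.3 CPM) were below all 3 wild-type hearts (34.1, 48.2 and 48.6 CPM) and both Isl1 +/- hearts (41.5 and 42.4 CPM). In set 6, the 3 Nipbl +/- hearts (32.2, 45.8 and 48.6 CPM) and the double heterozygous heart (48.1 CPM) were below the 2 wild-type hearts (60.0 and 65.8 CPM) and the Isl1 +/- heart (57.3 CPM). In set 5 the genotypes overlapped, with wild-type hearts at 42.2 and 58.2 CPM and the 4 Nipbl +/- hearts between 42.1 and 50.9 CPM. The difference in mean log2 CPM between Nipbl +/- and wild-type hearts was −0.62 in set 2, −0.09 in set 5 and −0.60 in set 6, and between double heterozygous and wild-type hearts −0.52, −0.15 and −0.39. Both comparisons share the wild-type hearts of each set. The value of Nipbl +/- hearts in set 5 was −0.13 without the library labelled Nipbl +/- replicate 2.

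With set in the edgeR fit, Tgfbr3 in Nipbl +/- hearts was 74.6% of the wild-type level (log2 fold change −0.42, SE 0.10, 95% interval −0.62 to −0.23, adjusted p = 0.0141). In double heterozygous hearts it was 77.0% of that level by the same edgeR test (log2 fold change −0.38, SE 0.10, interval −0.58 to −0.17, adjusted p = 0.0325). The Nipbl allele's loss averaged over both Isl1 genotypes gave −0.38 (SE 0.07, interval −0.53 to −0.24, adjusted p = 0.00112, edgeR). Against Isl1 +/- hearts, the double heterozygous value of −0.34 (SE 0.10) did not pass the edgeR test (adjusted p = 0.110). Isl1 loss alone gave −0.03 (interval −0.22 to 0.15), double against Nipbl heterozygous hearts 0.04 (interval −0.15 to 0.24), and the interaction 0.08 (interval −0.19 to 0.34).

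The call of Tgfbr3 depended on the set term. Without it, edgeR gave −0.23 in Nipbl +/- (adjusted p = 0.331) and −0.16 in double heterozygous hearts (adjusted p = 0.516), and −0.18 averaged (adjusted p = 0.235). It also depended on set 2, without which the 3 edgeR values were −0.33, −0.30 and −0.31 (adjusted p = 0.269, 0.363 and 0.103). The Nipbl +/- call was also lost without set 6 (−0.37, adjusted p = 0.105), and the double heterozygous call without set 1, 5 or 6 (−0.40, −0.47 and −0.37, adjusted p = 0.0656, 0.0953 and 0.0952), by edgeR. Without the library labelled Nipbl +/- replicate 2, Tgfbr3 was at −0.45 in Nipbl +/- (adjusted p = 0.00451) and −0.38 in double heterozygous hearts (adjusted p = 0.0123), and its difference of −0.34 between double heterozygous and Isl1 +/- hearts passed the edgeR test (adjusted p = 0.0481). Leaving out each library in turn kept the Nipbl +/- and the averaged call in 37 of 37 fits and the double heterozygous call in 32 of 37, which was lost without wild-type replicate 9 or 10 or double heterozygous replicate 6, 8 or 9 (largest adjusted p = 0.0816).

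**Figure D2:**
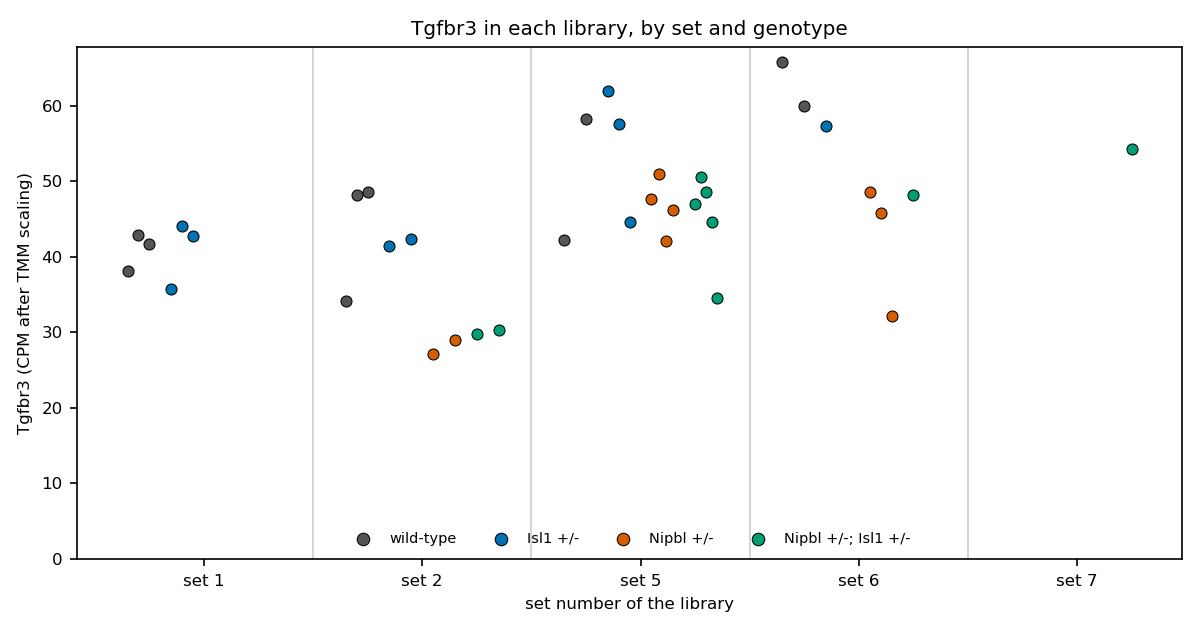
Tgfbr3 in CPM after TMM scaling (vertical axis, from 0) in each of the 37 libraries (points), by set number (horizontal axis) and genotype (colour and position within a set). In sets 2 and 6 all libraries that lost a Nipbl allele lie below those that did not, between 27.1 and 30.3 CPM in set 2, while in set 5 the genotypes overlap.

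The Tgfbr3 gene lies on chromosome 5 (GRCm38 107106570 to 107289629, minus strand, 18 merged exons in GENCODE M21), and 297 bases of its exons are shared with Gm43422, an unclassified transcript on the same strand. The deposited symbols do not include Gm43422, and the counting rule for shared bases is not given in the sources used here. Counts of Tgfbr3 ranged from 680 to 3283 per library.

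Among the transcription factors, Twist1 and the zinc-finger repressors Snai1 and Snai2, which turn off epithelial cadherin and other adhesion genes, did not pass in any comparison of genotypes. Twist1 was at 48.5 ± 5.90 CPM in wild-type (range 39.3 to 58.5, median 47.1, n = 10), 50.3 ± 5.22 in Isl1 +/- (41.8 to 57.0, median 51.2), 49.3 ± 10.7 in Nipbl +/- (35.4 to 73.3, median 49.3) and 46.6 ± 8.06 CPM in double heterozygous hearts (32.9 to 56.7, median 47.9, n = 9 each). Its 95% interval against wild-type was −0.15 to 0.28 on the log2 scale in Nipbl +/- and −0.19 to 0.26 in double heterozygous hearts. The genotypes overlapped throughout, and the highest and lowest hearts of all both had lost a Nipbl allele.

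Snai1 was at 10.3 ± 1.53 CPM in wild-type (range 8.52 to 13.5, median 9.92, n = 10) and 11.8 ± 1.24 in Isl1 +/- hearts (9.76 to 13.9, median 11.7, n = 9). It was at 9.75 ± 3.15 in Nipbl +/- (5.88 to 16.5, median 8.86) and 9.91 ± 2.96 CPM in double heterozygous hearts (5.68 to 13.8, median 9.61, n = 9 each). The SD was larger in both groups that lost a Nipbl allele (3.15 and 2.96 CPM) than in the others (1.53 and 1.24 CPM), a difference in spread that was not tested. Snai1 in Nipbl +/- hearts was higher than wild-type in set 2 (difference in mean log2 CPM 0.44) and lower in sets 5 and 6 (−0.31 and −0.47), the former being −0.20 without the library labelled Nipbl +/- replicate 2. Snai2, also called Slug, was at 7.03 ± 1.44, 7.62 ± 0.977, 7.35 ± 1.50 and 7.40 ± 0.980 CPM in wild-type, Isl1 +/-, Nipbl +/- and double heterozygous hearts, with intervals of −0.21 to 0.21 and −0.16 to 0.27 for Nipbl +/- and double heterozygous against wild-type. Every Snai2 library of the other genotypes lay within the wild-type range of 5.11 to 9.77 CPM.

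Msx1 and Msx2 are homeobox targets of BMP signalling that act together in cushion formation. Both had lower means in the 3 mutant genotypes, without passing the test. Msx1 was at 20.9 ± 3.01 CPM in wild-type (17.6 to 26.3, median 19.8, n = 10), 17.2 ± 3.10 in Isl1 +/- (13.5 to 22.4, median 16.5), 17.0 ± 5.45 in Nipbl +/- (3.60 to 22.3, median 17.8) and 15.7 ± 3.05 CPM in double heterozygous hearts (9.47 to 19.9, median 16.1, n = 9 each). Of 9 Isl1 +/- hearts 7 were below every wild-type heart for Msx1, and likewise 7 of 9 double heterozygous and 4 of 9 Nipbl +/- hearts. The log2 fold changes were −0.27 (SE 0.18, adjusted p = 0.850), −0.23 (SE 0.18, adjusted p = 0.591) and −0.29 (SE 0.20, adjusted p = 0.627) in Isl1 +/-, Nipbl +/- and double heterozygous hearts by edgeR. Within sets, Msx1 in double heterozygous hearts was lower than in wild-type hearts in sets 2, 5 and 6 (−0.38, −0.32 and −0.51 in mean log2 CPM). In Nipbl +/- hearts Msx1 was higher than wild-type in set 2 (0.15) and lower in sets 5 and 6 (−0.75 and −0.30), and Msx2 likewise (0.13, −0.45 and −0.40). The set 5 values rested in part on the library labelled Nipbl +/- replicate 2, without which they were −0.19 for Msx1 and −0.20 for Msx2. The log2 fold change of Msx1 between double heterozygous and Nipbl +/- hearts was −0.07 with it and −0.25 without it, not called in either fit.

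Msx2 was at 18.7 ± 4.50 CPM in wild-type (11.5 to 26.1, median 17.9, n = 10), 15.0 ± 2.78 in Isl1 +/- (11.3 to 19.0, median 14.8), 15.1 ± 2.95 in Nipbl +/- (8.22 to 19.0, median 15.7) and 13.7 ± 3.36 CPM in double heterozygous hearts (10.6 to 21.3, median 13.5, n = 9 each). In each mutant genotype 8 of 9 hearts were below the wild-type mean for Msx2, and the ranges overlapped. Its log2 fold change in double heterozygous hearts was −0.37 (SE 0.16, interval −0.70 to −0.05, unadjusted p = 0.0262, adjusted p = 0.314, edgeR). In Isl1 +/- hearts it was −0.32 (SE 0.14, interval −0.62 to −0.03, unadjusted p = 0.0331, adjusted p = 0.835, edgeR), with within-set differences of −0.25, −0.08, −0.48 and −0.53 in sets 1, 2, 5 and 6.

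The library labelled Nipbl +/- replicate 2 had the lowest Msx1 of all hearts, 3.60 CPM. The next Nipbl +/- heart had 15.4 and the lowest double heterozygous heart 9.47 CPM. That library also had the lowest Msx2, 8.22 CPM, where the next Nipbl +/- heart had 14.4 and the lowest double heterozygous heart 10.6 CPM. Without it, Nipbl +/- hearts were at 18.6 ± 2.30 CPM of Msx1 and 16.0 ± 1.51 CPM of Msx2 (n = 8). The log2 fold changes of Nipbl +/- against wild-type hearts then were −0.10 for Msx1 and −0.17 for Msx2, and those of double heterozygous hearts were −0.34 (adjusted p = 0.0860) and −0.40 (adjusted p = 0.0906), which edgeR did not call.

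Prrx1, a paired-related homeobox gene of mesenchyme, was at 6.24 ± 1.65 CPM in wild-type (4.21 to 10.48, median 6.05, n = 10), 6.91 ± 1.43 in Isl1 +/-, 6.58 ± 1.33 in Nipbl +/- and 5.98 ± 1.84 CPM in double heterozygous hearts (n = 9 each). All mutant hearts lay within the wild-type range. Its log2 fold change in double heterozygous hearts was −0.09 (interval −0.43 to 0.24).

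**Figure D3:**
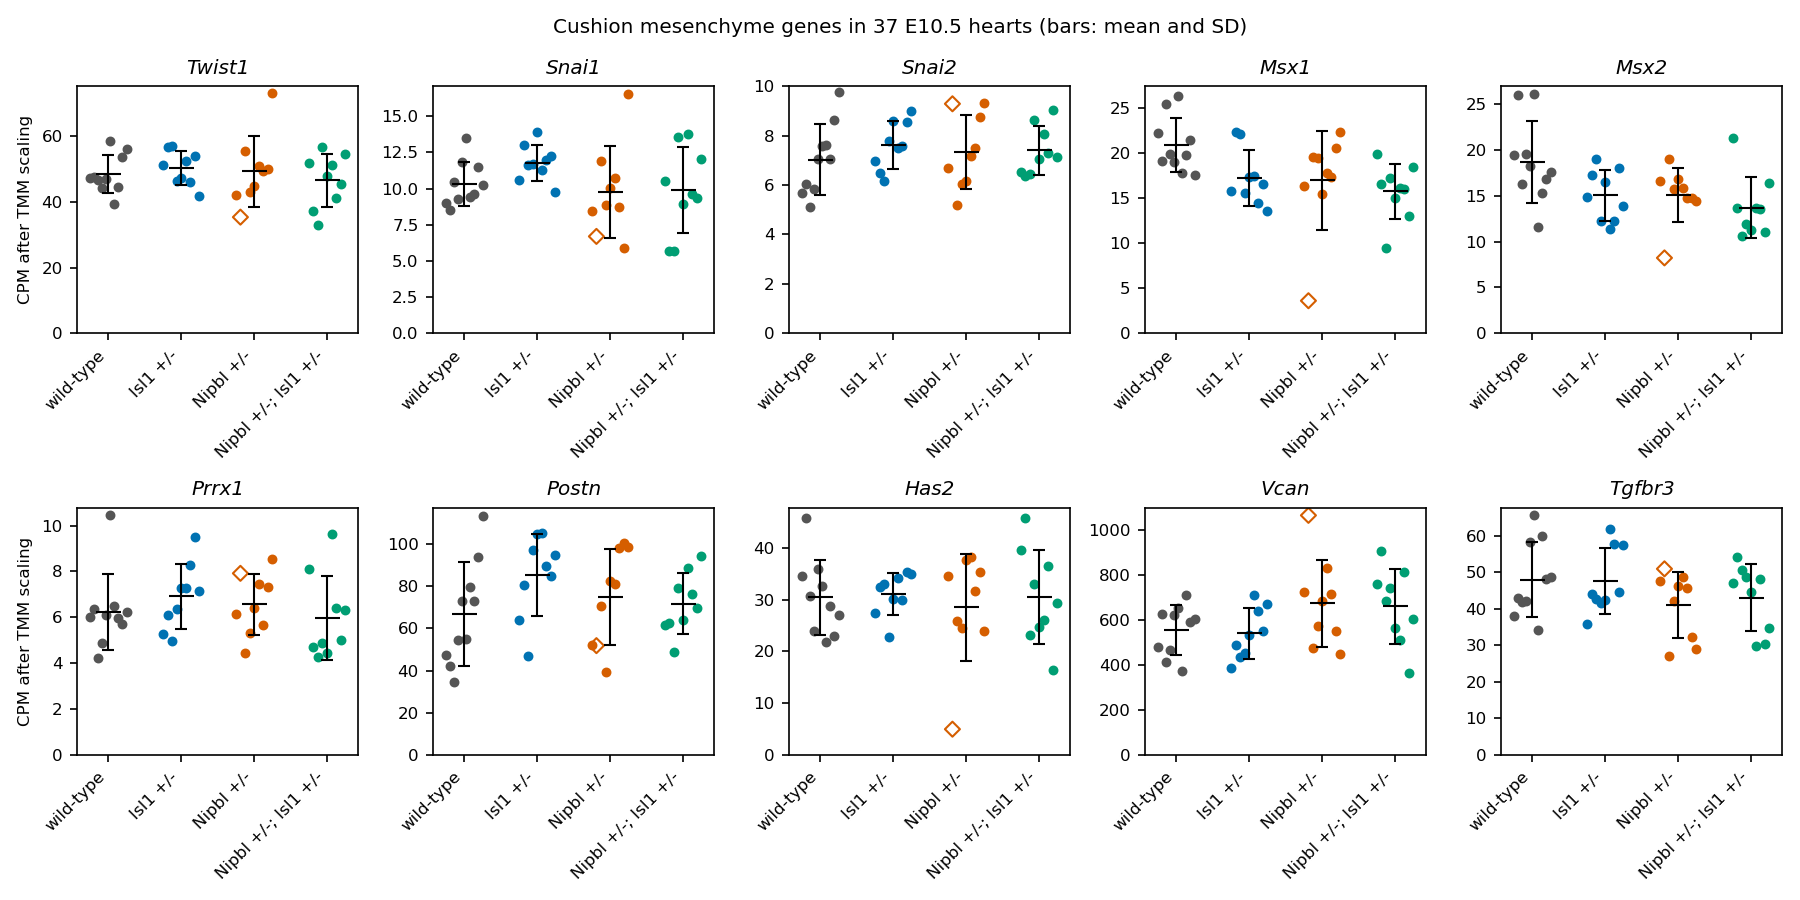
CPM after TMM scaling (vertical axis, from 0) of the 10 genes in each library (points) of 4 genotypes (horizontal axis), with mean and SD (black bars; n = 10 wild-type, 9 in each other group); the open diamond is the library labelled Nipbl +/- replicate 2. The genotypes overlap for every gene, and the diamond is lowest for Msx1 (3.60 CPM), Msx2 (8.22 CPM) and Has2 (4.94 CPM) and highest for Vcan (1067.5 CPM).

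Of the matrix genes, Has2 makes hyaluronan, the sugar polymer that swells the cushions and is needed for them to form. It was at 30.4 ± 7.28 CPM in wild-type (21.7 to 45.8, median 29.7, n = 10), 31.2 ± 4.06 in Isl1 +/- (22.8 to 35.3, median 32.5), 28.5 ± 10.4 in Nipbl +/- (4.94 to 38.2, median 31.6) and 30.6 ± 9.12 CPM in double heterozygous hearts (16.5 to 45.8, median 29.4, n = 9 each). The means were close and the ranges overlapped. Without the library labelled Nipbl +/- replicate 2, which at 4.94 CPM was far below the next heart of its group (23.9 CPM), Nipbl +/- hearts were at 31.4 ± 5.93 CPM of Has2 (n = 8). The difference in mean log2 CPM of Has2 between Nipbl +/- and wild-type hearts in set 5 was −0.55 with that library and 0.11 without it, and the log2 fold change between double heterozygous and Nipbl +/- hearts was 0.06 and −0.12, not called in either fit. The interval of the log2 fold change of Has2 in double heterozygous hearts, −0.47 to 0.40, was wide. Has2 shares 182 exon bases with Has2os on the opposite strand, and since the strand setting of the counting is not given in the sources used here, reads of the pair cannot be told apart there.

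Vcan was at 556 ± 113 CPM in wild-type (374 to 713, median 598, n = 10) and 541 ± 113 in Isl1 +/- hearts (385 to 713, median 532, n = 9). It was at 675 ± 194 in Nipbl +/- (447 to 1067.5, median 684) and 662 ± 167 CPM in double heterozygous hearts (366 to 907, median 684, n = 9 each), and 4 of 9 hearts of each of these groups were above every wild-type heart. With set in the fit, the log2 fold change of Vcan was 0.08 in Nipbl +/- (interval −0.18 to 0.34) and 0.004 in double heterozygous hearts (interval −0.27 to 0.27). Without the library labelled Nipbl +/- replicate 2, which at 1067.5 CPM was the highest of all, Nipbl +/- hearts were at 626 ± 135 CPM of Vcan (n = 8), and their log2 fold change was −0.02.

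Postn encodes periostin, a secreted matrix protein of maturing cushions and valves. It was at 66.7 ± 24.7 CPM in wild-type (34.5 to 113.5, median 64.0, n = 10), 85.3 ± 19.3 in Isl1 +/- (46.8 to 105.4, median 89.5), 75.0 ± 22.9 in Nipbl +/- (39.5 to 100.8, median 80.9) and 71.8 ± 14.3 CPM in double heterozygous hearts (48.9 to 94.4, median 69.8, n = 9 each). All mutant hearts lay within the wild-type range of Postn. Its log2 fold change in Isl1 +/- hearts, 0.48 (SE 0.14, interval 0.19 to 0.76), had an unadjusted p of 0.00199 by edgeR but did not pass after adjustment (adjusted p = 0.469). Isl1 +/- hearts had the higher Postn mean in sets 1, 2, 5 and 6 (0.60, 0.09, 0.56 and 0.58 in mean log2 CPM). In double heterozygous against Isl1 +/- hearts the value was −0.40 (adjusted p = 0.410) and the interaction −0.44 (unadjusted p = 0.0413, adjusted p = 0.999), by edgeR.

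Tested together, the set terms called 4 of the 10 genes, Tgfbr3, Postn, Vcan and Snai2, which is close to the 38.2% called of all genes (edgeR adjusted p = 6.00e-05, 0.00106, 0.00179 and 0.0120). Postn in wild-type hearts was between 34.5 and 47.2 CPM in set 1 (n = 3), between 79.6 and 113.5 CPM in set 2 (n = 3) and between 54.5 and 73.2 CPM in sets 5 and 6 (n = 2 each), so these ranges did not overlap. Tgfbr3 in wild-type hearts was between 38.1 and 42.9 CPM in set 1 and between 60.0 and 65.8 CPM in set 6. Snai2 in wild-type hearts was between 5.11 and 6.05 CPM in set 1 and between 7.63 and 9.77 CPM in set 2. Over all genotypes Vcan averaged 472 ± 86.1 CPM in set 1 (n = 6), 484 ± 84.7 in set 2 (n = 9), 672 ± 141 in set 5 (n = 14) and 708 ± 96.4 CPM in set 6 (n = 7). The other 6 genes did not pass for set, Snai1 being nearest (adjusted p = 0.0740).

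After set and genotype were taken out of log2 CPM, the residuals of the 10 genes did not vary as 1 block between hearts. Twist1, Snai1 and Msx1, whose promoters are shown above, varied together: Pearson r was 0.76 for Twist1 and Snai1, 0.66 for Twist1 and Msx1 and 0.57 for Snai1 and Msx1 over 37 libraries, and 0.74, 0.74 and 0.67 without the library labelled Nipbl +/- replicate 2. Vcan and Tgfbr3 formed another pair (r = 0.75, and 0.74 without it). Other values turned on that library: Msx1 with Has2 had r = 0.81 over 37 libraries and 0.23 over the other 36, and Has2 with Vcan had −0.15 and 0.69. Tgfbr3 had r = −0.02 with the mean of the other 9 genes (0.14 without that library). Snai2 and Vcan were also near 0 with the mean of their other 9 (−0.07 and 0.03), but at 0.27 and 0.45 without that library. Twist1 had 0.75 with the mean of its other 9 (0.70 without it). These correlations are descriptions, since the hearts share sets, depth and composition.

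**Figure D4:**
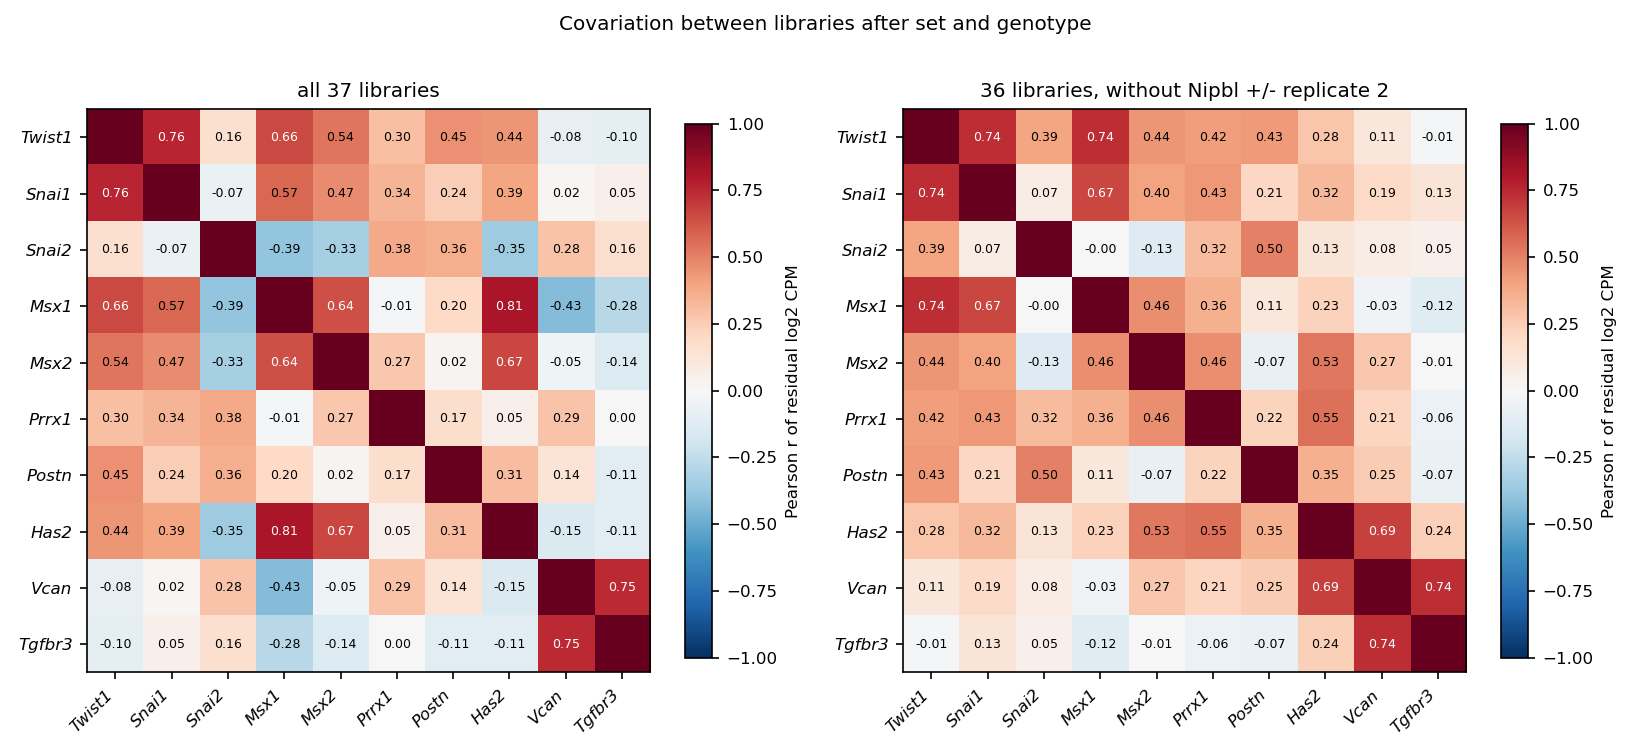
Pearson r between genes (both axes) of residual log2 CPM after set and genotype, over 37 libraries (left) and over 36 without the library labelled Nipbl +/- replicate 2 (right); colour runs from −1 (blue) to 1 (red). Twist1, Snai1 and Msx1 stay together in both (0.57 to 0.76 left, 0.67 to 0.74 right), as do Vcan and Tgfbr3 (0.75 and 0.74), while Msx1 and Has2 go from 0.81 to 0.23.

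Vcan and Tgfbr3 also moved with a measure of library composition. The slope of each library's log2 CPM on log2 exon length, over 14768 genes, had r = 0.84 with Vcan and 0.73 with Tgfbr3 after set and genotype, and between −0.37 and 0.34 with the other 8 genes. Without the library labelled Nipbl +/- replicate 2 it had r = 0.80 with Vcan, 0.71 with Tgfbr3 and 0.54 with Has2 (−0.17 with that library), and between −0.07 and 0.40 with the other 7. Median slopes were −0.042 in wild-type, −0.004 in Isl1 +/-, 0.031 in Nipbl +/- and 0.044 in double heterozygous hearts, with overlapping ranges. With the slope as a further covariate, Tgfbr3 was at −0.42 in Nipbl +/- (adjusted p = 2.72e-04), −0.38 in double heterozygous (adjusted p = 9.09e-04) and −0.36 averaged (adjusted p = 2.45e-05), by edgeR.

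The genes whose residuals were most like the mean of the 10, over 37 libraries and among genes whose log2 CPM averaged 1 or more, were Erbb3 (r = 0.87), Gjc1 and Bmp1 (0.84 each), and Sox13 and Arhgef40 (0.83 each). These r were 0.82, 0.78, 0.79, 0.76 and 0.76 without the library labelled Nipbl +/- replicate 2. Erbb3 encodes a neuregulin receptor found in cushion mesenchyme, and it is also among the neural crest markers read further on. Most like Tgfbr3, a query added after its values were seen, were Srl (r = 0.87), Pld1 and Cd93 (0.85 each), Dag1 (0.82) and Dgkk (0.81).

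Other genes of the cushion pathway were read from lists by role, for loss of a Nipbl allele averaged over both Isl1 genotypes, where edgeR called 2.67% of all genes as higher and 1.36% as lower. Of 19 ligand genes 1 was higher, Wnt9a, a Wnt ligand of the cushion endocardium (log2 fold change 0.42, SE 0.09), from 4.72 ± 1.02 CPM in wild-type (n = 10) to 7.00 ± 1.08 in Nipbl +/- and 8.06 ± 0.832 CPM in double heterozygous hearts (n = 9 each). Of 20 receptor genes 0 passed in either direction by edgeR (4 at an unadjusted p under 0.05), and Pdgfra, a receptor of mesenchymal growth factor signals, rose in double heterozygous against wild-type hearts (0.43, SE 0.12, adjusted p = 0.0483), from 35.4 ± 10.4 to 53.2 ± 9.96 CPM, with Nipbl +/- hearts at 50.1 ± 9.22 CPM. With the length slope as a covariate, a fit that called 5.66% of all genes as higher and 4.53% as lower, Pdgfra also passed in the averaged comparison (0.25, edgeR adjusted p = 0.0126). Of 18 genes of Smads and other signal transducers 1 fell, Lef1, a nuclear partner of beta-catenin (−0.33, SE 0.08), from 16.9 ± 2.83 CPM in wild-type to 13.1 ± 2.12 in Nipbl +/- and 11.6 ± 2.45 CPM in double heterozygous hearts. In the fit with the length slope Lef1 was still lower (−0.32) and 3 of the 18 rose, Smad4 (0.20), Smad9 (0.17) and Smurf1 (0.14), beside 5.66% of all genes. Of 24 other transcription factor genes tested 1 rose, Scx, a factor of tendon and valve progenitors (0.53, SE 0.12).

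Of 32 matrix and hyaluronan genes tested 4 fell and 0 rose: Acan, the proteoglycan aggrecan (−1.39, SE 0.21), Lum, the collagen-binding lumican (−1.05, SE 0.24), and the type I collagen chains Col1a1 (−0.65, SE 0.14) and Col1a2 (−0.38, SE 0.11). Acan was at 1.59 ± 0.628 CPM in wild-type, 1.71 ± 0.588 in Isl1 +/-, 0.815 ± 0.400 in Nipbl +/- and 0.627 ± 0.231 CPM in double heterozygous hearts. Col1a1 was at 162.9 ± 80.1, 190.2 ± 51.7, 123.3 ± 45.8 and 144.0 ± 28.7 CPM in the same order. Col1a2 was at 172.7 ± 72.8, 201.8 ± 71.7, 161.2 ± 52.8 and 183.7 ± 30.7 CPM. Its mean in double heterozygous hearts was thus above that of wild-type hearts and below that of Isl1 +/- hearts. With the length slope as a covariate 5 of the 32 fell, Cemip (−0.60) being added, and 2 rose, Fbln2 (0.26) and Fn1 (0.19), by edgeR, in a fit that called 4.53% of all genes as lower and 5.66% as higher. Of 13 protease and inhibitor genes tested 3 fell, Adamts5 (−0.68, SE 0.14), Adamts19 (−0.45, SE 0.09) and Adamts15 (−0.37, SE 0.08), members of the family that includes the enzymes cutting versican and aggrecan. Of the matrix and protease genes lower in the averaged comparison, edgeR called only Acan against wild-type, in Nipbl +/- and double heterozygous hearts (1.71% and 2.6% of all genes). Double heterozygous against Isl1 +/- hearts (0.957%) called Acan, Lum, Adamts5 and Adamts19 as lower. Adamts5 was at 5.31 ± 1.57 CPM in wild-type, 6.02 ± 1.62 in Isl1 +/-, 3.99 ± 1.55 in Nipbl +/- and 3.80 ± 1.15 CPM in double heterozygous hearts. Of 10 adhesion genes none passed in the averaged comparison by edgeR (2 at an unadjusted p under 0.05), and Itga4, the alpha-4 integrin, rose with the length slope as a covariate (0.38). The median log2 fold change was −0.04 for the matrix list and −0.12 for the protease list, beside 0.005 for all genes. Without set 2 the calls fell to Acan and Col1a1 in the matrix list, Adamts5 in the protease list and Wnt9a among the ligands, and Lef1 and Scx no longer passed. Without the library labelled Nipbl +/- replicate 2, 5 matrix genes (Cemip added) and 5 protease and inhibitor genes (Mmp15 and Timp3 added) fell, while Heyl and Itga4 rose and Hey2 fell in other lists. Over all genes, 1044 (6.93%) were called in that fit, 4.28% as higher and 2.65% as lower, against 605 (4.02%) with the library. The fit without set 2 called 152 (1.01%), 0.58% as higher and 0.433% as lower.

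In double heterozygous against wild-type hearts the list genes called by edgeR also included Fbln2, a matrix protein of the cushions (0.62, SE 0.12), which rose from 121.5 ± 32.7 to 201.6 ± 36.3 CPM, Itga4 (0.57, SE 0.14), which also rose, and Hey2, a Notch target (−0.42, SE 0.11), which fell. Fbln2 was 1 of 32 matrix genes called for loss of an Isl1 allele averaged over both Nipbl genotypes (0.37, SE 0.08, edgeR adjusted p = 0.0308), where 0.173% of all genes were called. In that comparison the epicardial marker Upk3b was also called (0.40, SE 0.08, edgeR adjusted p = 0.0260), and 7 of 7 epicardial markers were above 0 with a median log2 fold change of 0.30. Their part in the Fbln2 value was not tested.

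Markers of other cells were read beside these results. For loss of a Nipbl allele, 0 of 11 endocardial and 0 of 10 cardiomyocyte markers passed by edgeR (1 and 0 at an unadjusted p under 0.05). Without the library labelled Nipbl +/- replicate 2, 1 endocardial marker fell (Npr3, −0.20), and with the length slope as a covariate 1 rose (Pecam1, 0.16) and 4 cardiomyocyte markers passed, Myl7 (0.16) and Ryr2 (0.14) higher and Tnnt2 (−0.17) and Tnni1 (−0.20) lower, in fits that called 6.93% and 10.2% of all genes. Of 7 epicardial markers 3 rose (Wt1, Upk1b and Upk3b), 4 in both of these other fits (Tbx18 added). Of 10 markers of the pharyngeal second heart field 3 rose, among them Tbx1 and Isl1 (log2 fold change 1.07, SE 0.27, and 0.65, SE 0.15). All 10 were above 0, with a median log2 fold change of 0.56. Isl1 itself lacks 1 allele in 2 of the genotypes. For that loss averaged over both Nipbl genotypes its log2 fold change was −0.33 (SE 0.13, adjusted p = 0.321, edgeR). Against wild-type, edgeR gave Isl1 −0.20 in Isl1 +/- (adjusted p = 0.877) and 0.32 in double heterozygous hearts (adjusted p = 0.591). Without set 2, 1 of the 7 epicardial markers (Wt1) and 0 of the 10 second heart field markers passed by edgeR. In double heterozygous against wild-type hearts, where 2.6% of all genes were called, 5 of 7 epicardial and 1 of 10 second heart field markers (Tbx1, 1.37) rose. Of 7 head and limb mesenchyme markers tested 1 fell there (Pitx1, −1.47). The summed epicardial markers ranged from 261 to 463 CPM in wild-type, 307 to 553 in Isl1 +/-, 407 to 614 in Nipbl +/- and 519 to 674 CPM in double heterozygous hearts, so that the double heterozygous range lay above the wild-type range. The summed endocardial markers ranged from 818 to 1087 CPM in wild-type, 830 to 1230 in Isl1 +/-, 851 to 1171 in Nipbl +/- and 865 to 1320 CPM in double heterozygous hearts, all overlapping, and every endocardial, cardiomyocyte and epicardial marker had counts in each genotype. Of 9 neural crest, 10 head and limb mesenchyme and 10 foregut and liver markers 5, 7 and 6 were abundant enough to test, and none passed for loss of a Nipbl allele by edgeR. Of 8 erythroid markers 7 were tested and 0 passed in any comparison by edgeR. At an unadjusted p under 0.05 by edgeR there were 7 for loss of an Isl1 allele averaged, where 12.2% of all genes were. There were 6 in double heterozygous against Nipbl +/- hearts (9.01% of all genes) and 0 in the other 6 comparisons. These 7 markers were measured in the same hearts and are not independent results. Their median log2 fold change was −0.80 in Nipbl +/- against wild-type hearts, where 0 of 7 were above 0, and 0.61 in Isl1 +/- and 0.68 in double heterozygous hearts, where 7 of 7 were. Averaged over the other allele it was −0.35 for Nipbl and 1.08 for Isl1. The summed erythroid markers ranged widely within each genotype, from 1865 to 106403 CPM in wild-type, 822 to 48348 in Isl1 +/-, 501 to 23384 in Nipbl +/- and 1316 to 54111 CPM in double heterozygous hearts. The lowest value was that of the library labelled Nipbl +/- replicate 2. The part of these cell types in the values of Tgfbr3 and the matrix genes was not tested.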

How the data were processed

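Libraries were made from total RNA of dissected hearts with a NEBNext Ultra II kit, per the labels. The authors deposited raw read counts per gene symbol, with 1 column for each of 37 libraries and 0 other columns of values. The submitters' processing notes name STAR, featureCounts and GRCm38 (mm10), and the annotation, strand setting and filters are not given in the sources used here. Genotypes were read from the titles and sets from the description.

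Genes of low count were removed by edgeR's filterByExpr (genotype as group, at least 10 counts, total of 15), and the rest were scaled by TMM and fitted in edgeR 4.0.16 (R 4.3.3, limma 3.58.1) with genotype and set as factors over all libraries. Quasi-likelihood F tests were two-sided and adjusted by Benjamini-Hochberg over 15046 genes. Standard errors came from the F statistic. Log2 CPM used a prior count of 2. Exon lengths came from GENCODE M21, which is on GRCm38. The fit was also run on simulated data, whose outcome is not reported here and on which no result rests. No 2 libraries of a genotype agreed within sampling noise (153 pairs, smallest chi-square per degree of freedom 7.19). The labels name no molecular identifiers, so reads are not independent molecules.

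All 10 members were named. List genes were named where they passed the threshold, up to 8 per list and comparison, and 1 list member is not reported here. The members, lists, tests and alternatives were chosen with earlier results of these data known. Alternatives were no set term, the title's replicate number as a block, DESeq2 1.42.0, DESeq2-style size factors, the low-count filter dropped or raised to 10 counts throughout, an added Xist covariate, sva 3.50.0 with 2 surrogate variables, and leaving out sets or single libraries. The exon-length slope as a covariate and a fit of sets 2, 5 and 6 alone were added after seeing the data.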

Additional observations from a re-analysis of the deposited data

Results flagged for a closer look

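Of 40 combinations of gene and genotype, 4 had an outlying library, judged by the gap between the highest or lowest library and its nearest neighbour as a share of the group's range. Chance gives about 1 in 20 such results. Of these, 3 were the same library, that labelled Nipbl +/- replicate 2, which was the lowest of 9 for Msx1 (3.60 CPM, next 15.4, gap 0.632 of the range), Has2 (4.94 CPM, next 23.9, gap 0.571) and Msx2 (8.22 CPM, next 14.4, gap 0.571). The fourth was wild-type replicate 6, the highest of 10 for Prrx1 (10.48 CPM, next 6.47, gap 0.639).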

How the results depend on the processing

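Over 80 log2 fold changes of members and 40 mean levels, 1320 values under alternatives included 0 called values with the opposite sign, 15 that lost a call and 5 that gained one. In 135 the sign of a value called in neither fit changed. The number of members called was unchanged for Isl1 +/- against wild-type, double heterozygous against Nipbl +/-, the interaction and the averaged Isl1 comparison under every alternative run, and for set number it was 4 or 5 when a library was left out. In Nipbl +/- against wild-type hearts the count went from 1 to 0 without a set term, with the replicate block, without set 2 and without set 6 (Tgfbr3 −0.37, adjusted p = 0.105). In double heterozygous against wild-type hearts it went to 0 without a set term, with the replicate block, with sets 2, 5 and 6 alone and without set 1, 2, 5 or 6 (Tgfbr3 between −0.47 and −0.30, adjusted p between 0.0656 and 0.363 without a set), to between 0 and 1 when a library was left out, and to 2 with 2 surrogate variables, where Msx2 was added (−0.38, adjusted p = 0.0477). In double heterozygous against Isl1 +/- hearts it rose to 1 with DESeq2 (Tgfbr3 adjusted p = 0.0474), 2 surrogate variables (0.00327) and the length slope (0.0233), and was between 0 and 1 when a library was left out, being 1 without wild-type replicate 4, Isl1 +/- replicate 8 or Nipbl +/- replicate 2. For the averaged Nipbl comparison it went to 0 without a set term, with the replicate block and without set 2. The causes were not tested. With the replicate block in place of set, edgeR gave Tgfbr3 −0.24 in Nipbl +/-, −0.15 in double heterozygous hearts and −0.19 averaged (adjusted p = 0.378, 0.588 and 0.278). Over 54 same-numbered pairs of hearts of unlike genotype, r of log2 CPM after genotype ranged from −0.45 to 0.55, and 17 were over 0.1. Set was not taken out and pairs of unlike number were not compared. These r thus cannot show whether replicate numbers pair hearts. Over all genes, the calls for the averaged Nipbl comparison went from 605 to 1045 without a set term, 993 with the replicate block, 2057 with 2 surrogate variables, 1533 with the length slope, 1044 without Nipbl +/- replicate 2, 401 without set 6, 275 without set 5 and 152 without set 2. The fewest counts of a member in a library were 123 for Prrx1, and SEs did not follow the counts: Snai2, with as few as 147, had an SE of 0.10 in Nipbl +/- against wild-type hearts, and Has2 one of 0.21.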
